A study of Mus musculus with 4 samples.

Results

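The genes described here are 10 genes of serine, glycine and proline synthesis in female mouse neural stem cells with and without Smchd1, which acts on chromatin and helps keep one X chromosome silent. They were taken by symbol, 10 of the 25965 entries of the count table, and each symbol matched 1 entry. The list holds the transcription factor gene Atf4, the serine synthesis genes Phgdh, Psat1 and Psph, the serine to glycine genes Shmt1 and Shmt2, the folate enzyme gene Mthfd2, the asparagine synthetase gene Asns, and the proline synthesis genes Aldh18a1 and Pycr1. All 10 passed the filter on low counts.

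Serine is made from an intermediate of glycolysis in a chain of reactions run by Phgdh, Psat1 and Psph. Serine hydroxymethyltransferases split serine into glycine and a one-carbon unit carried by folate, Shmt1 in the cytosol and Shmt2 in mitochondria, and Mthfd2 oxidises that unit in mitochondria. Proline is made from glutamate by Aldh18a1 and Pycr1. Atf4 is translated more when the initiation factor eIF2alpha is phosphorylated and then activates many of these genes. Neural stem cells and astrocytes are known as sites of serine synthesis in the brain.

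Control libraries were Smchd1 del/fl, with 1 deleted and 1 conditional allele, and were never transduced. Deleted libraries were Smchd1 del/del, made from the same lines with the retrovirus MSCV-Cre-puro, with puromycin added 24 h after transduction and harvest 7 days after it. Both groups came from E14.5 embryos of a mixed C57BL/6, 129 and Castaneus (Cast) background, with a maternal 129 X that carries an Xist deltaA allele and a paternal Cast X. There were 4 libraries from 2 lines, called A and B, 1 control and 1 deleted library of each. Deletion, transduction and puromycin selection cannot be told apart here, and neither can less RNA per cell and fewer cells of a type.

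Library totals ran from 29873400 to 34018500 counts. For Smchd1 the 2 controls gave 2779 and 3461 counts and the deleted libraries 785 and 852 (log2 fold change −1.96, SE 0.07, edgeR adjusted p = 0.0194). Of the neural stem cell markers, all 10 were tested and their summed level was 9326 and 8242 CPM (counts scaled to library size) for control A and B, against 8340 and 7071 after deletion. Vim was the largest part of that sum, at 4395 and 3366 CPM in controls and 4066 and 2454 after deletion. Microglial markers summed to 10.4 to 11.3 CPM and mesenchymal markers to 1.88 to 2.15 CPM over the 4 libraries, with Cx3cr1, Tmem119, Dcn and Lum at 0 in all of them.

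The C/EBP-ATF response element is the sequence that ATF4 is known to bind. Its letters TGATGNAA were searched on both strands in the 250 bases before each RefSeq start (GRCm38.p6), a window held for all 10 genes. Matches stood before the RefSeq start of 2 of the 10, Asns and Pycr1, against 3.91% of all 27025 genes with a promoter in the table. The windows are shown because they place the element relative to the start. The match is in capitals, on the strand of the gene, 23 to 16 bases before the start of Asns (chr6:7693210-7693268, minus strand) and 103 to 96 bases before that of Pycr1 (chr11:120643808-120643887, minus strand).

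Asns: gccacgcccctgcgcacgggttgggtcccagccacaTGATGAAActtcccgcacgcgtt

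Pycr1: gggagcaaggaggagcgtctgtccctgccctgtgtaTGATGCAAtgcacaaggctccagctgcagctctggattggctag

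A match is a description of letters and not a measured site. Positions are relative to the RefSeq start, and the match of Asns lies inside the longer interval that the count table gives for the gene. Both windows of Psat1 and the window of Shmt1 also lie inside the intervals given for those genes. The other windows, that of Atf4 itself and both windows of Psat1 included, do not hold these letters. Neither of the matched genes passed the test in deleted cells, with the values given for each gene.

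Of the 10 genes, 8 had lower fitted levels in deleted cells, and 1, Psat1, passed the test. Genes were tested with edgeR over all 14860 genes that passed the filter, with line as a block, and called at a Benjamini-Hochberg adjusted p under 0.05. Of the 10, 1 was called lower and 0 higher, where 1.89% of all genes tested were called lower and 3.71% higher. At an unadjusted p under 0.05 there were 6 of the 10, against 30.8% of all genes. Their median log2 fold change was −0.20, against 0.01 over all genes tested, and was −0.21 within line A and −0.17 within line B. In 5 genes both deleted libraries lay below both controls (22.8% of all genes did so), in 1 both lay above (22.9%), and in 4 the groups overlapped. The list was chosen with earlier results of these data known, so its shares beside those of all genes are descriptions only.

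**Figure D1:**
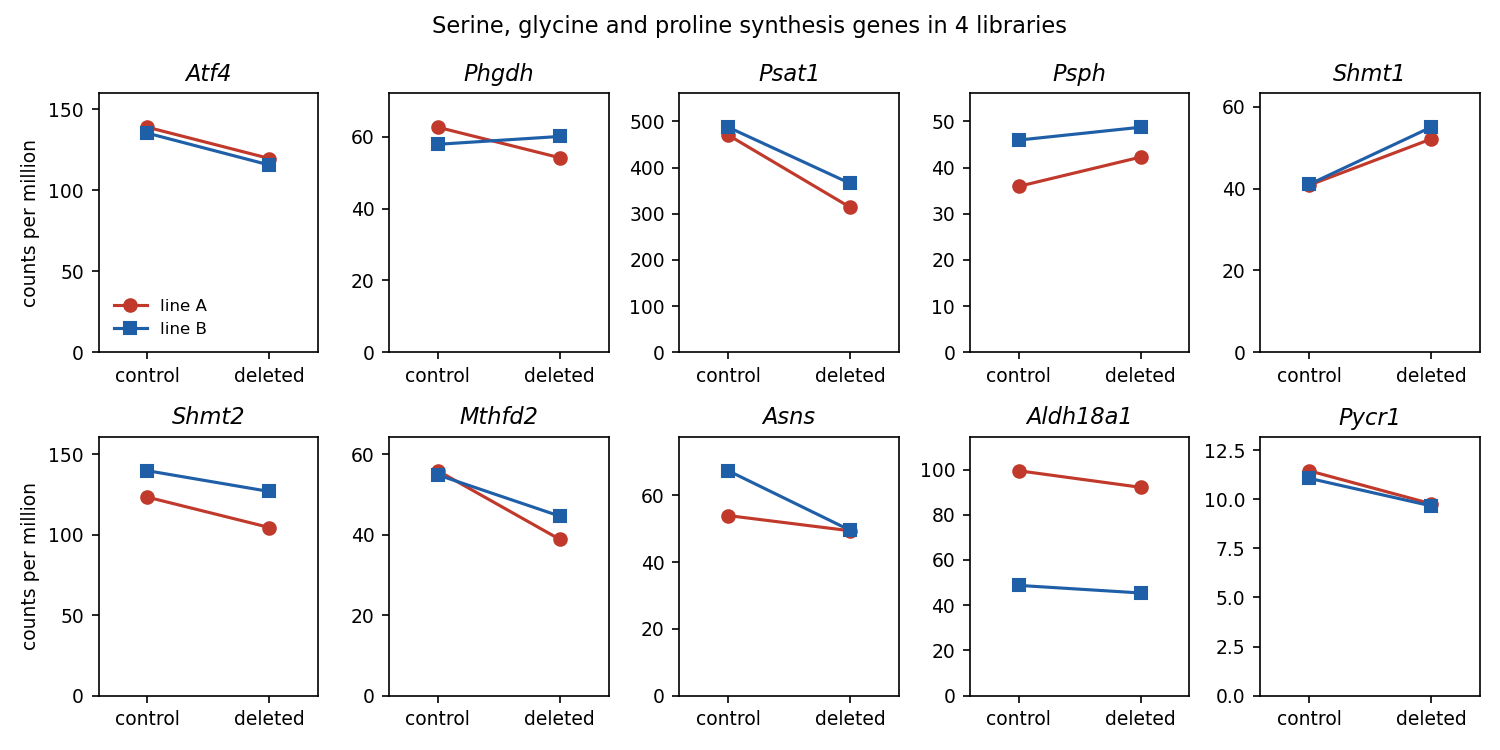
Level of each gene in CPM (vertical axis, from 0) in the control and deleted library of line A (circles) and line B (squares), joined within a line. Psat1 went from 471 and 488 to 314 and 366, and Aldh18a1 differed more between the lines than between the groups.

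In the serine branch, Psat1 (phosphoserine aminotransferase, chromosome 19, 15904678 to 15947337, minus strand, mm10) gave 13978 and 16615 counts in control A and B, against 10511 and 11700 in their deleted partners. Scaled to library size, controls stood at 471 and 488 CPM and deleted libraries at 314 and 366, so that the groups did not overlap. Psat1 fell by 0.50 on the log2 scale (SE 0.08, edgeR adjusted p = 0.0411), which is 29.2% lower. Line A alone gave −0.58 and line B −0.41. The processed pseudogene Gm12611 matches the Psat1 transcript over 1056 bases at 91.0% identity and has no entry of its own. How reads matching both were counted is not stated in the labels. DESeq2 with the same block gave an adjusted p of 0.000293. Without the block the edgeR adjusted p was 0.405, in an edgeR fit that called 0 genes of any kind (an unadjusted p under 0.05 was reached by 1019 higher and 718 lower genes). DESeq2 without the block gave 0.0496. On simulated counts the paired edgeR test called more unchanged genes than its threshold allows, so adjusted p-values near 0.05 are too small to be taken at face value.

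Phgdh, the dehydrogenase that starts the branch (chromosome 3, 98313170 to 98339990, minus strand), showed no common direction. Its levels were 62.6 (A) and 57.9 CPM (B) in controls, against 54.1 and 60.1 after deletion, and the groups overlapped. The log2 fold change was −0.08 (SE 0.09, edgeR adjusted p = 0.594). Phgdh counts are uncertain, since 17 processed pseudogenes in GENCODE M21 match its transcript over at least 200 bases at 90.4% to 98.7% identity, and how reads with several matches were counted has no statement in the labels. Only 1 of the 17 has an entry in the table, Gm6756, with 0 to 15 counts.

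Psph, the phosphatase that releases serine (chromosome 5, 129765558 to 129787252, minus strand), was at 35.9 (A) and 45.9 CPM (B) in controls, against 42.3 and 48.7 after deletion. The deleted library was the higher one in both lines, but the groups overlapped because line B lay above line A. The log2 fold change was 0.16 (SE 0.08, edgeR adjusted p = 0.253). Psph shares 10.4% of its exon bases with Cct6a on the opposite strand, which had 9821 to 13864 counts per library. No source used here says whether counting used strand, so reads of the pair within the shared bases cannot be told apart.

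The isozymes of the serine to glycine step had values of opposite sign, and neither was called. Shmt1, the cytosolic enzyme (chromosome 11, 60788104 to 60811718, minus strand), was at 40.8 (A) and 41.0 CPM (B) in controls, against 52.1 and 55.0 after deletion. Both deleted libraries stood above both controls, with a log2 fold change of 0.39 (SE 0.07, edgeR adjusted p = 0.0536). Line A alone gave 0.35 and line B 0.42. That p lay just past the threshold, and Shmt1 was called higher with limma-voom (adjusted p = 0.0482), with DESeq2's size factors in edgeR (0.0416) and with no filter on low counts (0.0370), but not with DESeq2 (0.124). Of its exon bases 4.74% are shared with Smcr8 on the opposite strand.

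Shmt2, the mitochondrial enzyme (chromosome 10, 127517123 to 127522444, minus strand), was at 123 (A) and 140 CPM (B) in controls, against 104 and 127 after deletion. The deleted library was lower in both lines, but deleted B lay above control A. The log2 fold change was −0.19 (SE 0.07, edgeR adjusted p = 0.146). The processed pseudogene Gm15544 matches the Shmt2 transcript over 233 bases at 90.1% identity and has no entry of its own. A test of Shmt1 against Shmt2 was not run, so their opposite signs are given as values.

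Mthfd2, the mitochondrial folate dehydrogenase downstream of Shmt2 (chromosome 6, 83305691 to 83317606, minus strand), was at 55.8 (A) and 54.8 CPM (B) in controls, against 38.8 and 44.6 after deletion. Both deleted libraries stood below both controls. The log2 fold change was −0.41 (SE 0.09, edgeR adjusted p = 0.0635), −0.53 in line A and −0.30 in line B. It was called lower with DESeq2's size factors in edgeR (adjusted p = 0.0464) and with no filter (0.0381), but not with DESeq2 (0.0824) or limma-voom (0.0567).

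Asns, which makes asparagine from aspartate and glutamine (chromosome 6, 7675169 to 7693254, minus strand), was at 53.9 (A) and 67.3 CPM (B) in controls, against 49.3 and 49.5 after deletion. Control B stood apart as the high library, and the log2 difference came to −0.13 for line A alone and −0.44 for line B. Over both lines it was −0.29 (SE 0.10, edgeR adjusted p = 0.136).

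Atf4 (chromosome 15, 80255184 to 80257540, plus strand) was at 139 (A) and 135 CPM (B) in controls, against 119 and 115 after deletion. The groups did not overlap and the lines gave nearly the same difference, −0.22 in A and −0.23 in B. The log2 fold change was −0.22 (SE 0.06, edgeR adjusted p = 0.101), which did not pass. These are RNA levels, and the amount of ATF4 protein was not measured.

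Neither proline gene passed the test. Aldh18a1, the enzyme that turns glutamate into the precursor of proline (chromosome 19, 40550257 to 40588463, minus strand), had 99.5 CPM in control A and 92.1 in deleted A, against 48.8 and 45.4 in line B. Its log2 fold change between groups was −0.11 (SE 0.07, edgeR adjusted p = 0.323). Pycr1, the reductase of the last step (chromosome 11, 120635712 to 120643769, minus strand), was at 11.4 (A) and 11.1 CPM (B) in controls, against 9.77 and 9.66 after deletion. These groups did not overlap, yet with 309 to 377 counts per library the log2 fold change of −0.21 had an SE of 0.13 (edgeR adjusted p = 0.337).

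**Figure D2:**
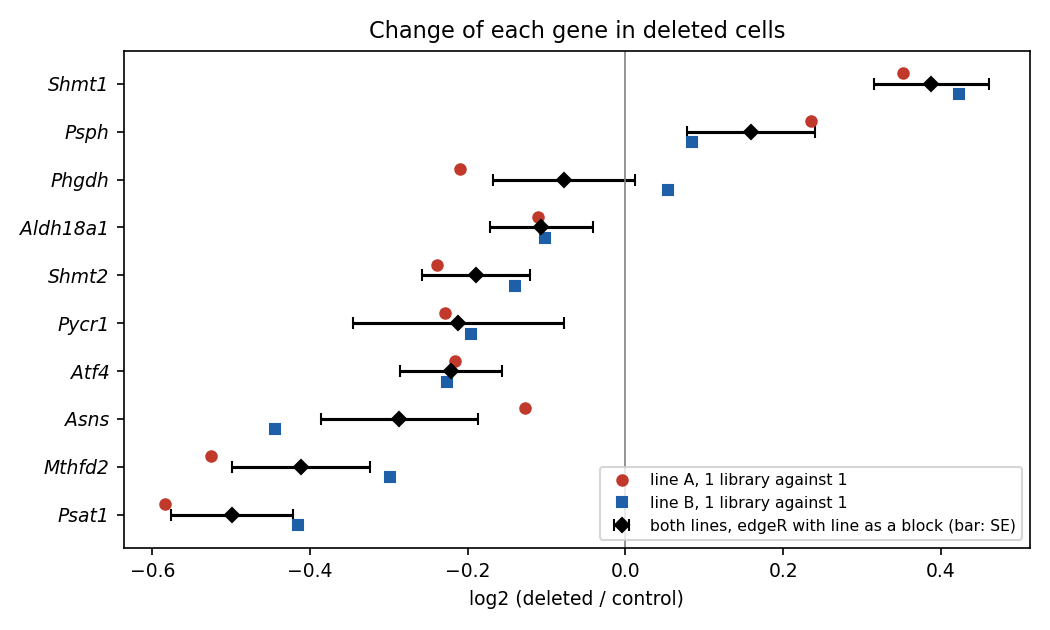
Log2 ratio of deleted to control (horizontal axis) for each gene, as the edgeR value over both lines with its SE (diamonds) and as the difference within line A (circles) and line B (squares). Psat1 lies lowest at −0.50 and Shmt1 highest at 0.39, and Phgdh is the gene whose lines fall on both sides of 0.

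Between the lines, Aldh18a1 was the member that differed. The line term of the same fit, tested after the values were seen, gave a log2 difference of −1.02 for line B against line A (SE 0.07, edgeR adjusted p = 0.00747), a level 2.03-fold higher in line A. No other member was called, where 10.1% of all genes tested were called in either direction. Next came Psph at 0.28 (adjusted p = 0.0981) and Shmt2 at 0.23 (adjusted p = 0.103). Only 2 lines were compared, so this describes these lines.

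Per length, the genes spanned a wide range of levels. In CPM per kilobase of exon, with exon lengths from GENCODE M21, Psat1 was the most abundant at 73.8 to 115 over the 4 libraries, above 97.4% of the 13313 genes tested that had a length. Atf4 followed at 49.0 to 58.8, Shmt2 at 33.6 to 44.9 and Phgdh at 21.8 to 25.2, and these 4 ranges do not overlap. Asns was at 18.0 to 24.6, Aldh18a1 at 11.2 to 24.4, Mthfd2 at 11.1 to 16.0, Shmt1 at 10.5 to 14.2 and Psph at 8.30 to 11.3. From Phgdh to Psph each range overlaps the next, but the ranges pool control and deleted libraries, and neighbours were not tested against each other. Mthfd2 stood above Shmt1 in control A and B (16.0 and 15.7 against 10.5 and 10.6). After deletion it stood below Shmt1 (11.1 and 12.8 against 13.4 and 14.2). Pycr1 was the least abundant at 2.45 to 2.91, apart from all others and above 30.2% of those genes.

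Around these genes, aminoacyl-tRNA synthetase genes, which charge tRNAs with amino acids and many of which ATF4 is known to activate, had lower values throughout. All 18 tested had a negative log2 fold change, 16 of them in both lines, with a median of −0.27 (48.3% of all genes tested were negative). This list too was chosen with earlier results of these data known, so these shares are descriptions. Of the 18, edgeR called 3 lower and 0 higher. Those called were Iars, lower by 0.40 (SE 0.06, edgeR adjusted p = 0.0425), Rars by 0.37 (adjusted p = 0.0469) and Cars by 0.44 (adjusted p = 0.0486). These values lie near 0.05, where the paired test is too generous, and the other fits are not given for these genes.

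Other known ATF4 and stress targets went both ways. Of 19 tested, 1 rose and 2 fell, with a median of −0.04 (0.03 within line A and −0.14 within line B). Eif4ebp1, an inhibitor of cap-dependent translation, went from 1120 and 1310 counts to 668 and 675 and fell by 0.89 (SE 0.09, edgeR adjusted p = 0.0226). Sesn2, a sensor of leucine, fell by 0.39 (adjusted p = 0.0451). Gdf15, a secreted stress hormone, rose by 0.87 (adjusted p = 0.0422), from 120 and 415 counts to 229 and 760. The adjusted p of Sesn2 and Gdf15 lie near the threshold too, with the same limit.

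Among amino acid transporter genes, 1 of 11 tested rose and 1 fell (median −0.16). The lines differed in sign, with a median of 0.18 within line A and −0.16 within line B. Slc6a9, the glycine transporter of glia, rose by 1.29 (SE 0.12, edgeR adjusted p = 0.0205), from 861 and 1292 counts to 2740 and 2585. Slc38a1, a transporter of glutamine and other neutral amino acids, fell by 0.54 (SE 0.07, adjusted p = 0.0323). Genes of aspartate, asparagine and glutamine metabolism had 2 called higher and 0 lower among 10 tested (median 0.13, 8 at an unadjusted p under 0.05). In sign, 6 were positive and 4 negative, each in both lines. The called genes were Asrgl1, which splits asparagine, by 0.92 (SE 0.08, edgeR adjusted p = 0.0195), and the glutamate dehydrogenase gene Glud1 by 0.53 (adjusted p = 0.0323).

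The rest of the serine, glycine, proline and folate genes were little called. Of the other folate genes 1 of 15 tested rose and 0 fell (median −0.04), Aldh1l1 by 0.62 (SE 0.08, edgeR adjusted p = 0.0321), which is also an astrocyte marker. The median of these folate genes was −0.07 within line A and 0.01 within line B. None of 4 glycine cleavage genes was called by edgeR (median 0.08, 0 at an unadjusted p under 0.05), with Gldc at 0.08 and Dld at 0.09. The same held for 5 other proline genes (median 0.05, 0 at an unadjusted p under 0.05), with Oat at 0.15 and the proline breakdown gene Aldh4a1 at 0.00. Of 12 genes that use or carry serine, edgeR called 0 (median 0.10, 6 at an unadjusted p under 0.05), with Serinc1 at 0.07 and Serinc3 at 0.27. Their median was 0.28 within line A and −0.0056 within line B.

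Upstream of Atf4, 0 of 8 genes of the eIF2alpha kinases and their regulators were called by edgeR (median −0.13, 3 at an unadjusted p under 0.05), with Gcn1l1 at −0.17 and Ppp1r15b at 0.01. Chaperones of the endoplasmic reticulum, whose stress also acts on Atf4, had 0 of 13 called (median 0.10, 1 at an unadjusted p under 0.05), with Hspa5 at 0.17 and Hsp90b1 at 0.12. The chaperone median was −0.04 within line A and 0.17 within line B. Of 12 Myc, mTOR and other regulators 0 were called (median −0.03, 2 at an unadjusted p under 0.05), with Nfe2l2 at 0.03 and Ehmt2 at −0.04.

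**Figure D3:**
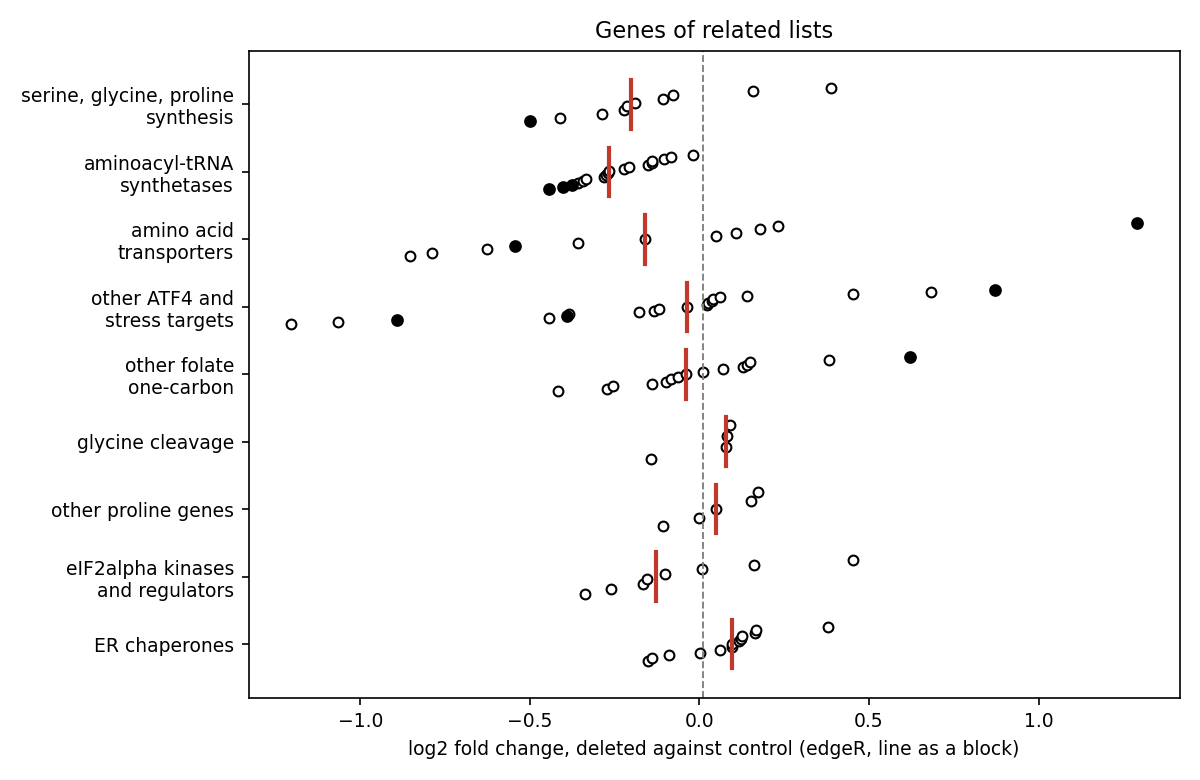
Log2 fold change of each tested gene (points, horizontal axis) in lists related to these genes, filled where the edgeR adjusted p was under 0.05, with the list's median as a vertical bar and that of all genes tested, 0.01, as a dashed line. The 18 tRNA synthetase genes all lie below 0, with a median of −0.27.

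Markers of other cell types and other gene groups also differed after deletion, and their part in the values above was not tested. All 9 astrocyte markers were positive and 6 rose (median 0.96), with summed levels of 1767 and 1956 CPM before and 3398 and 3522 CPM after deletion. Among them Aqp4 rose by 2.01, S100b by 2.64, Slc1a3 by 0.96 and Gja1 by 0.64. Slc1a3 made up most of the summed levels, at 1199 and 1383 CPM before and 2405 and 2612 CPM after deletion. Of the 10 neural stem cell markers 0 were called lower, with a median of −0.18 (6 at an unadjusted p under 0.05 in either direction). In sign, 6 were negative, 5 of them in both lines, and 4 were positive. Among the negative ones, named after their values were seen, Nes was at −0.48 (edgeR adjusted p = 0.0536) and Notch1 at −0.55 (adjusted p = 0.0857). Of 7 neuronal markers, 6 were found under the listed symbol and tested. These 6 summed to 183 and 84.7 CPM in control A and B and 73.6 and 40.8 after deletion (median −0.36). The remaining marker, Map2, has its entry under the older symbol Mtap2 and is in neither the sum nor the median. Mtap2 was at 0.03 (edgeR adjusted p = 0.869) with an average log2 CPM of 9.74, a level above that whole sum. Most of the sum of the 6 was the synaptic gene Syt1, at 170 and 72.0 CPM in controls against 61.4 and 25.9. Syt1 was the 1 marker called and fell by 1.47 (edgeR adjusted p = 0.0194). Dcx at 1.12 and Snap25 at 0.21, named after their values were seen, had the opposite sign and were not called.

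Cell cycle genes had 23 of 24 positive values and 0 called by edgeR (median 0.18, 10 at an unadjusted p under 0.05), with Mki67 at 0.37 and Top2a at 0.44. Their summed level was 2675 and 2444 CPM in control A and B, against 2944 and 3190 after deletion. Summed CPM of interferon-stimulated genes were 214 in control A against 748 in its deleted partner, and 166 against 190 for line B (21 of 21 tested positive, 1 called, Ifi44, by 4.46). Oligodendrocyte markers had 0 of 6 called by edgeR (median 0.56, 3 at an unadjusted p under 0.05), with Cnp at 0.21 and Cspg4 at 0.64. Of microglial markers 2 were tested, Csf1r (−0.11) and P2ry12 (0.52), and of mesenchymal ones only Col1a1 (0.04), and edgeR called 0 of these 3 (0 at an unadjusted p under 0.05).

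By pattern over the 4 libraries, the genes closest to the mean of the 10 were Trappc6b, Rbm22, Ankrd11, Fbxl18 and Ash2l. Closeness was the Euclidean distance between centred log2 CPM profiles among the 9169 genes whose average log2 CPM reached 4, and the 5 distances were 0.00914 to 0.0155. Their log2 fold changes ran from −0.14 for Trappc6b to −0.15 for Fbxl18, none called. Of the 10 genes themselves, Pycr1 (0.0679) and Atf4 (0.0851) lay closest to that mean and Aldh18a1 (1.01) farthest. With 4 libraries such a ranking is a description only.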

How the data were processed

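RNA sequencing counts of 4 libraries were used, 2 control and 2 deleted. The values are whole-number read counts per gene that the authors deposited, with no normalization. The submitters' processing notes list mm10 as build and bcl2fastq, TopHat2 2.0.12 and edgeR as tools. For the counting tool and the use of strand no statement was found in the labels or headers. Only the counts of all aligned reads were used here, and the table's 8 columns of reads split by parental genome were not. In both kinds of column, names tie to a group and not to single samples. The allele comparisons that had been planned were left out.

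The members and gene lists, 19 lists besides the members, were chosen with earlier results of these data known. Groups came from the labels and lines from numbers in the column names. Per the labels' protocols each line was divided into a transduced and an untransduced portion, which pairs the libraries, so line was a block in the main test. Deviations from the group means correlated within a line at r = 0.72 across 14860 genes, which are not independent replicates. Both groups held distinct libraries (chi-square over degrees of freedom 43.9 for controls, 71.1 for deleted). No label mentions repeat cultures of a line, so p-values reflect only the spread among these cultures. Each gene had 1 residual degree of freedom, and the edgeR fit moderates its variance with that of all genes. The p-values therefore rest in part on variance shared across genes.

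Tests used edgeR 4.0.16 in R 4.3.3 (quasi-likelihood, TMM, filterByExpr, Benjamini-Hochberg over all genes, threshold 0.05). DESeq2 1.42.0, limma 3.58.1, other scalings, no filter, no block and leaving out each library were alternatives. The tests were checked on simulated counts, where the paired edgeR and limma-voom tests, and to a lesser degree DESeq2, called more unchanged genes than a threshold of 0.05 allows, and edgeR without the block recovered none of the changed genes. CPM are on TMM-scaled totals. Copies of members were sought with BLAST 2.17.0 at 90% identity or more. Named from each list were the called genes, up to 4 by p, or the 2 with the highest counts if none was called, and the 5 genes nearest in profile. Overlaps and lengths come from GENCODE M21, promoters from RefSeq (GRCm38.p6). A result on 1 gene of the marker lists is not reported here.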

Additional observations from a re-analysis of the deposited data

Results flagged for a closer look

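Phgdh, the first gene of serine synthesis, had a lower level in the deleted library of line A (log2 difference −0.21) and a higher one in that of line B (0.0535). It was the only one of the 10 genes whose lines went opposite ways. The difference between the lines was not tested.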

How the results depend on the processing

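The design has 2 lines and 1 residual degree of freedom, and on simulated counts the paired edgeR test called too many unchanged genes. The total counts called were 551 higher and 281 lower in the paired fit. Without the replicate block edgeR called 0 and 0, so that fit singled out no gene at the threshold. With a library left out (3 libraries, no block) 1 group holds 1 library, so only effect sizes are read from those fits. In them Psat1 ran from −0.63 without deleted B to −0.39 without deleted A. DESeq2 without the block, added after seeing the data, called 242 and 101. With the block, DESeq2's size factors in edgeR gave 944 and 563, no filter gave 1131 and 671, and DESeq2 gave 438 lower. Members called lower were 1 in the paired fit, 0 with edgeR without the block, 1 with DESeq2 without the block, and 2 with DESeq2's size factors or no filter. Members called higher were 0, and 1 with DESeq2's size factors, limma-voom or no filter. The members' median log2 fold change was −0.20, −0.17 within line B, and −0.23 to −0.19 with a library left out. Signs turned for Phgdh within line B (0.0535), for Psph, which ran from −0.018 without control A to 0.34 without control B, and for Aldh18a1, which ran from −0.71 without deleted A to 0.49 without control A, in fits without the block where its line difference enters. Promoter matches were 2 in both windows. The planned allele comparisons and their alternatives were left out.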
